A study of Mus musculus with 3 samples.

Results

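Chemokine RNAs in apoptotic bodies (ABs), the membrane-bound fragments that dying cells shed, were examined for 9 mouse genes. They comprised 6 ligands (Ccl2, Ccl3, Ccl4, Ccl6, Ccl9 and Cxcl2) and 3 receptors (Ccr1, Ccr2 and Cxcr4). The genes were taken by symbol from the annotation GENCODE M21, and all 9 had entries in the mRNA table, as 20 of its 56651 transcripts. Counted as genes, with unmatched transcripts kept as they were, the table held 16072 entries.

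The study sequenced RNA of ABs (total RNA per the labels, selected on poly-T beads per the methods) from bone marrow cells of C57BL/6 mice aged 11 weeks, with 1 library per stage. BMM-ABs came from bone marrow macrophages grown with M-CSF at 50 ng/mL for 72 h, pOC-ABs from preosteoclasts given RANKL (100 ng/mL) and M-CSF (30 ng/mL) for 24 h, and mOC-ABs from mature osteoclasts given the same factors for at least 72 h. Per the labels, every culture, the macrophages included, received alendronate (500 μM, 12 h) to set off apoptosis, whereas the methods of the study name staurosporine and a longer osteoclast culture. Those methods also give M-CSF at 50 ng/mL beside RANKL, and a shorter culture of the macrophages with M-CSF than the labels. The label of each library names the parental cell and not the AB, and the number of mice or cultures behind a library is not given in the sources used here. The stages were compared pairwise, as pOC-ABs over BMM-ABs (G1), mOC-ABs over BMM-ABs (G2) and mOC-ABs over pOC-ABs (G3). These ratios share libraries, so their values are given side by side and are not independent. Wherever values for the libraries follow each other without a name, macrophage ABs come first, preosteoclast ABs next and mature osteoclast ABs last, and ratios follow the order G1, G2, G3.

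Chemokines are small secreted proteins that steer migrating cells, and they are classed by whether their leading conserved cysteines are adjacent (CC) or parted by a single residue (CXC). They act on receptors that span the membrane and signal through Gi proteins. In bone, ligands of Ccr1 such as Ccl3 and Ccl9 are known to act on osteoclast precursors, Ccl2 draws monocytes through Ccr2, and Cxcr4 binds Cxcl12 and holds blood-forming cells in the marrow.

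The coding stretches around these cysteines are shown for 5 of the 6 ligands because they separate the CC members from Cxcl2. Each lies within 1 coding exon of the coding transcript with the most reads, runs 5′ to 3′ in the sense of the gene, and has the cysteine codons in capitals.
Ccl2: gccccactcaccTGCTGCtactcattcacc
Ccl4: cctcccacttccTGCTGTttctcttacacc
Ccl6: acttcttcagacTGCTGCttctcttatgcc
Ccl9: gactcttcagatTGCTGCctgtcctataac
Cxcl2: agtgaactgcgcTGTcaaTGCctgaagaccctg
In GRCm38 these are chr11:82036494-82036523 (plus strand, Ccl2), chr11:83663470-83663499 (plus, Ccl4), chr11:83589374-83589403 (minus, Ccl6), chr11:83575914-83575943 (minus, Ccl9) and chr5:90904130-90904162 (plus, Cxcl2). The 4 CC ligands shown carry adjacent cysteine codons, and Cxcl2 has a glutamine codon, caa, between its pair. Over the whole coding sequence, Ccl3 and Ccl4 were identical at 68.1% of aligned positions and Ccl6 and Ccl9 at 65.1%, whereas Ccr1 and Ccr2 were identical at 60.9%.

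Whether reads could be shared with near copies was checked with words of 50 bases. The coding transcripts with the most reads of Ccl2, Ccl3, Ccl4, Ccl6, Ccr1 and Cxcr4 shared no such word with a transcript of another gene. Cxcl2 shared 5.75% of its words with Cxcl3, which had 2, 0 and 2 reads. Ccl9 shared 59 of its 2957 words with 250 genes. The genes annotated antisense to Ccl2 (Gm17268) and Ccl6 (E230016K23Rik) had 0 reads in the mRNA table. E230016K23Rik is annotated as a non-coding gene, so this count does not show that antisense RNA at Ccl6 was absent. Transcripts of the lncRNA table over Ccl6 had at most 4 reads in a library and are given further below.

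The mRNA table held 9100082, 7387317 and 7705592 reads, and 3 reads, taken as the limit that a count of 0 allows, were 0.330, 0.406 and 0.389 reads per 1000000 reads of the mRNA table (RPM). The osteoclast markers summed to 417, 633 and 1949 RPM (10 of 11 listed genes had entries; Calcr had none, and Itgb3 was at 6, 3 and 0 reads). The macrophage markers summed to 2629, 1443 and 1388 (8 of 8 had entries; Mertk and Mrc1 had at most 10 reads in any library). Of other cell types, none of the 9 neutrophil, 5 erythroid and 3 basophil and mast cell markers had entries. The B cell markers (2 of 4 with entries) reached at most 6 reads in a library, the T cell markers (1 of 3) 4, the stromal markers (2 of 4) 16, the megakaryocyte markers (1 of 3) 17 and the dendritic cell markers (1 of 4) 5. In G2, 8 of the 9 osteoclast markers with at least 20 reads were over 2-fold higher, against 4.29% of all genes. Of the 6 macrophage markers with as many reads, 5 were over 2-fold lower, against 9.14% of all genes. These lists differed along with the results below, and their part in them was not tested. In such bulk libraries, fewer ABs from cells of a type and less RNA per AB cannot be told apart.

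Below, reads of all transcripts of a gene were summed and given as RPM, and a log2 ratio is that of these levels. A gene was called higher or lower in a comparison when its ratio passed 2-fold, the fold limit of the study. Each 95% interval is exact (Clopper-Pearson) and covers counting error only. With 1 library per stage, no difference has a replicate check and no test of the stages was possible.

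Cxcl2 and Ccl4 were lowest in mOC-ABs, Ccr1 was highest there, and Ccl3 and Ccl9 stayed within 2-fold throughout. Cxcr4 also had its lowest level in mOC-ABs, but counting error did not separate it from pOC-ABs. In G1, 1 of the 9 genes was called higher (Ccl2) against 4.97% of all genes with at least 20 reads, and 3 were called lower (Cxcl2, Ccr2 and Cxcr4) against 6.22%. In G2, 2 were higher (Ccl2 and Ccr1) against 4.29% of all genes, and 4 lower (Ccl4, Cxcl2, Ccr2 and Cxcr4) against 9.14%. In G3, 2 were higher (Ccl6 and Ccr1) against 3.65%, and 1 lower (Cxcl2) against 7.03%. In each comparison and direction the share of the 9 genes was above the background, but a single gene among 9 already gives such a share. The 9 genes, like the other gene lists, were chosen with earlier results of these data known. Their shares are therefore descriptive and give no independent evidence of enrichment. The median log2 ratio of the 9 genes was -0.87, -0.29 and -0.11, beside -0.02, -0.05 and -0.05 over all genes.

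Several of these calls rested on few reads. When the whole interval had to lie past 2-fold, no gene of the 9 was called in G1, where 1.35% of all genes were higher and 2.08% lower by that rule. In G2, Ccr1 was higher (1.96% of all genes) and Ccl4, Cxcl2 and Cxcr4 were lower (3.89%). In G3, Ccr1 was higher (1.41%) and no gene of the 9 was lower (2.09%).

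**Figure D1:**
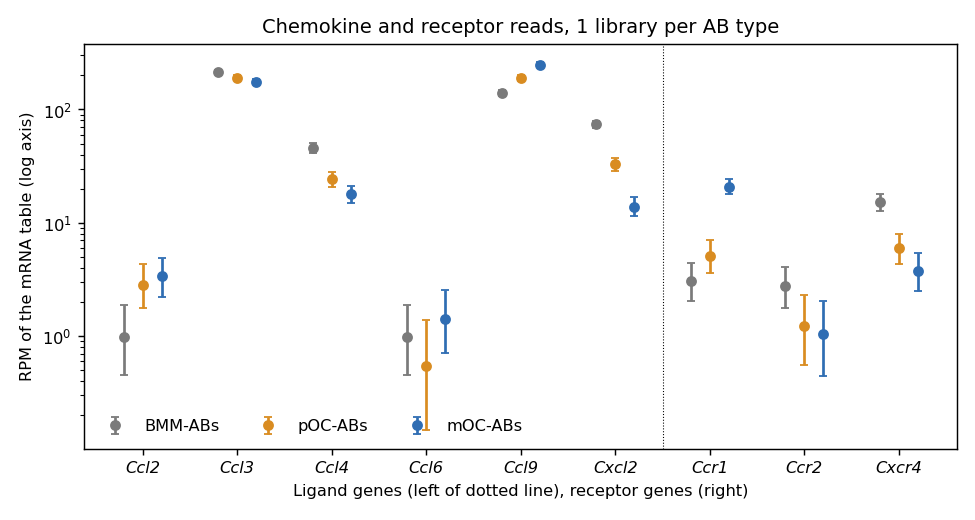
Reads per 1000000 reads of the mRNA table (RPM, log axis) for the 9 genes in the 3 AB libraries; points are single libraries and bars exact 95% counting intervals. Ccr1 is highest in mOC-ABs, at 20.9, where Cxcl2 and Cxcr4 are lowest, at 13.9 and 3.76. The bars of Cxcr4 in pOC-ABs and mOC-ABs overlap.

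**Figure D2:**
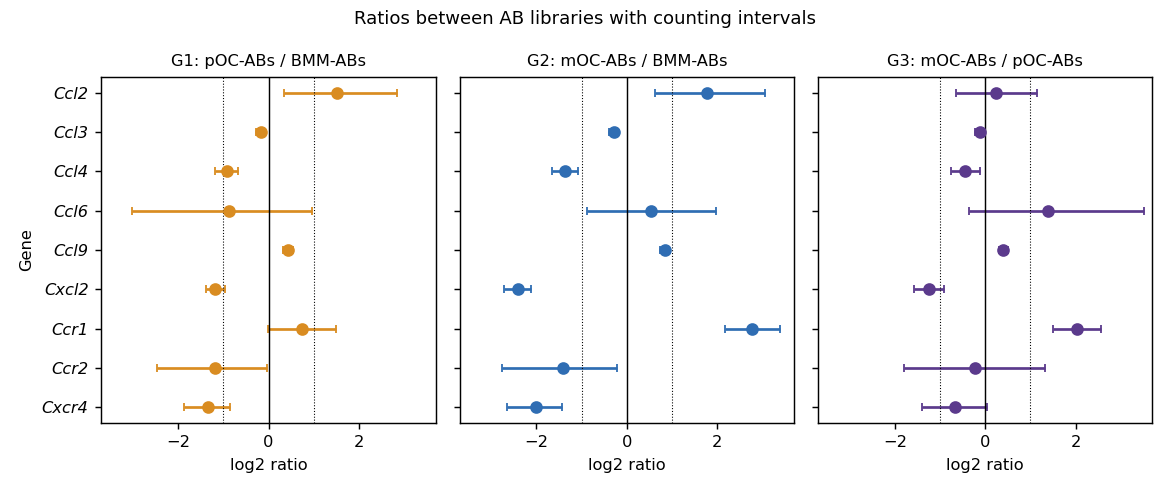
Log2 ratios of the 9 genes in G1, G2 and G3; points are ratios of single libraries, bars exact 95% counting intervals, the solid line no difference and the dotted lines 2-fold. The widest bars belong to Ccl6, with 4 to 11 reads in a library.

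**Figure D3:**
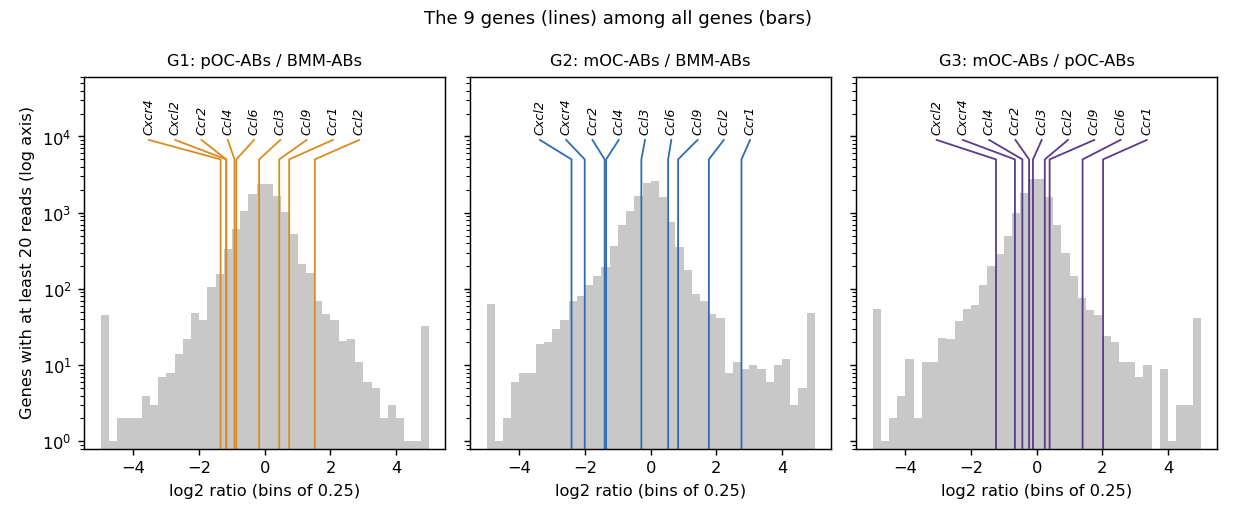
Distribution of log2 ratios of all genes with at least 20 reads over the 3 libraries (grey bars, number of genes on a log axis), with the 9 genes as labelled lines; the outermost bars also hold genes at 0 reads in 1 of the compared libraries. In G2 the 9 genes spread from -2.41 (Cxcl2) to 2.76 (Ccr1).

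Cxcl2, a CXC ligand that attracts neutrophils through Cxcr2, was the ligand furthest from no difference in G2. It had 673, 242 and 107 reads, or 74.0, 32.8 and 13.9 RPM. Each stage was lower than the one before it. The level was 2.26-fold lower for G1 (log2 ratio -1.17, interval -1.39 to -0.96), 5.33-fold lower for G2 (-2.41, -2.72 to -2.12) and 2.36-fold lower for G3 (-1.24, -1.58 to -0.90). Its receptor gene Cxcr2 had no entry in the table.

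Cxcl2 (chr5:90903871-90905938, plus strand) was also the member with the most reads on transcripts that do not encode the protein. The coding transcript Cxcl2-201 held 543, 205 and 81 reads, and the intron-retaining Cxcl2-203 held 97, 26 and 12. The log2 ratios of Cxcl2-201 were -1.10, -2.50 and -1.40 in G1, G2 and G3, and those of Cxcl2-203 were -1.60, -2.77 and -1.18, so both were lower in ABs of the later stages. A shorter intron-retaining transcript, Cxcl2-204, held 19, 6 and 10 reads, and all of its intervals held no difference (0.68 in G3, from -0.93 to 2.42). Reads on the retained-intron transcripts made up 17.2% of the gene for BMM-ABs (Wilson 95% interval 14.6% to 20.3%), 13.2% for pOC-ABs (9.52% to 18.1%) and 20.6% for mOC-ABs (14.0% to 29.2%). These intervals overlapped.

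Ccl4, a CC ligand that attracts monocytes and T cells, was lower in the osteoclast ABs as well. It had 418, 179 and 138 reads, or 45.9, 24.2 and 17.9 RPM. BMM-ABs held the highest level, and most of the difference lay between them and pOC-ABs. The level was 1.90-fold lower for G1 (log2 ratio -0.92, interval -1.18 to -0.67), 2.56-fold lower for G2 (-1.36, -1.65 to -1.08) and 1.35-fold lower for G3 (-0.44, -0.77 to -0.11). Ccl4 passed 2-fold in G1 when reads were divided by the total of the mRNA and lncRNA tables (-1.12), and when the reads of a lncRNA-table transcript overlapping the gene were added (-1.06). All of its reads were on Ccl4-201 (chr11:83662584-83664683, plus strand).

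Ccl3, a CC ligand of Ccr1 that neighbours Ccl4 on chromosome 11, differed less between libraries. It had 1955, 1408 and 1358 reads, or 214.8, 190.6 and 176.2 RPM. The levels lay close together, in the same order as for Ccl4. The log2 ratio was -0.17 for G1 (interval -0.27 to -0.07), -0.29 for G2 (-0.39 to -0.19) and -0.11 for G3 (-0.22 to -0.00444). All reads were on Ccl3-201 (chr11:83647844-83649355, minus strand), apart from an overlapping lncRNA-table transcript with at most 54 reads in a library. The number of Ccl3 reads per Ccl4 read, which does not depend on library totals, was 4.68 for BMM-ABs (interval 4.21 to 5.21), 7.87 for pOC-ABs (6.73 to 9.24) and 9.84 for mOC-ABs (8.25 to 11.8). For each Cxcl2 read there were 2.90 Ccl3 reads (2.66 to 3.18), 5.82 (5.07 to 6.70) and 12.7 (10.4 to 15.6).

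Ccl9, a CC ligand of Ccr1 that osteoclasts are known to make, went the other way. It had 1271, 1399 and 1918 reads, or 139.7, 189.4 and 248.9 RPM. Each stage was higher than the one before it. The log2 ratio was 0.44 for G1 (interval 0.33 to 0.55), 0.83 for G2 (0.73 to 0.94) and 0.39 for G3 (0.29 to 0.49), all within 2-fold. There were 0.650 Ccl9 reads per Ccl3 read for BMM-ABs (0.605 to 0.698), 0.994 for pOC-ABs (0.922 to 1.07) and 1.41 for mOC-ABs (1.32 to 1.52). At least 99.4% of Ccl9 reads in each library were on the coding transcript Ccl9-201 (chr11:83572919-83578636, minus strand), and a lncRNA-table transcript inside the gene, not counted with it, had at most 80 reads in a library.

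The remaining ligands were scarce. Ccl2, the monocyte attractant that binds Ccr2, had 9, 21 and 26 reads, or 0.989, 2.84 and 3.37 RPM. Both osteoclast ABs were above BMM-ABs, with a log2 ratio of 1.52 for G1 (interval 0.34 to 2.83) and 1.77 for G2 (0.63 to 3.05), while G3 gave 0.25 (-0.64 to 1.15). With a pseudocount of 1 added to each level, the G1 value was 0.95 and no longer past 2-fold. The coding transcript Ccl2-201 (chr11:82035571-82037453, plus strand) had 5, 18 and 20 of these reads and the intron-retaining Ccl2-202 had 4, 3 and 6.

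Ccl6, another CC ligand of Ccr1, had 9, 4 and 11 reads, or 0.989, 0.541 and 1.43 RPM. All intervals of its log2 ratios held no difference (-0.87 in G1, from -3.02 to 0.97; 0.53 in G2, from -0.88 to 1.98; 1.40 in G3, from -0.36 to 3.50), so the call in G3 was not detectable as a difference at this depth. The intron-retaining Ccl6-202 carried 5, 1 and 5 of these reads, the coding Ccl6-201 (chr11:83587882-83593087, minus strand) 3, 2 and 5, and the intron-retaining Ccl6-203 1 in each library.

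Among the receptors, Ccr1, which binds Ccl3, Ccl6 and Ccl9, was highest in mOC-ABs. It had 28, 38 and 161 reads, or 3.08, 5.14 and 20.9 RPM. The mOC-ABs stood apart, and the other two libraries lay close. Ccr1 was 6.79-fold higher in G2 (interval 4.53 to 10.5) and 4.06-fold higher in G3 (2.84 to 5.95). In G1 it was 1.67-fold higher (0.999 to 2.83), with no difference just inside the interval. On the log2 scale these ratios were 2.76 (G2), 2.02 (G3) and 0.74 (G1). All reads were on Ccr1-201 (chr9:123962124-123968692, minus strand).

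Cxcr4, the Cxcl12 receptor, had the reverse order. It had 138, 44 and 29 reads, or 15.2, 5.96 and 3.76 RPM. BMM-ABs were highest, and the osteoclast ABs were not separated from each other by counting error. Cxcr4 was 2.55-fold lower for G1 (log2 ratio -1.35, interval -1.87 to -0.85), 4.03-fold lower for G2 (-2.01, -2.64 to -1.42) and 1.58-fold lower for G3 (-0.66, -1.39 to 0.05).

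The counts given to the transcripts of Cxcr4 differed between libraries. Cxcr4-201 (chr1:128588199-128592290, minus strand) had 112, 44 and 29 reads, whereas the shorter coding Cxcr4-202 (chr1:128589099-128592293) had 26 in BMM-ABs and 0 in both pOC-ABs and mOC-ABs. Against a floor of 3 reads per library, Cxcr4-202 was at least 7.04-fold lower in G1 and at least 7.34-fold lower in G2. Both transcripts overlap, and how reads were divided between overlapping transcripts is not known. The floor does not cover that division, so a loss of Cxcr4-202 was not shown. Cxcr4-201 alone gave log2 ratios of -1.05 in G1 and -1.71 in G2, both still past 2-fold. The ligand gene Cxcl12 had 3, 0 and 0 reads, at or under the floor in every library.

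Ccr2, the receptor of Ccl2 on monocytes, had 25, 9 and 8 reads, or 2.75, 1.22 and 1.04 RPM. BMM-ABs were highest. The log2 ratio was -1.17 for G1 (interval -2.46 to -0.03), -1.40 for G2 (-2.76 to -0.21) and -0.23 for G3 (-1.81 to 1.32), and with that pseudocount the values in G1 and G2 were -0.76 and -0.88, within 2-fold. The reads were spread over 4 coding transcripts (chr9:124101950-124113557, plus strand), of which Ccr2-201 held 14, 4 and 4, Ccr2-203 6, 2 and 3, Ccr2-204 4, 2 and 0, and Ccr2-202 1 in each library.

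The balance of the receptors was thus reversed between stages. There were 0.203 Ccr1 reads per Cxcr4 read for BMM-ABs (interval 0.130 to 0.306), 0.864 for pOC-ABs (0.544 to 1.36) and 5.55 for mOC-ABs (3.72 to 8.55). On the per-length scale, Ccr1 made up 9.11%, 33.0% and 75.7% of the summed FPKM (reads divided by transcript length and by the mRNA-table total) of the 3 receptors, and Cxcr4 83.7%, 60.0% and 21.4%. Ccr2 made up 7.16%, 7.01% and 2.85%. Of the 6 ligands, Ccl3 kept the greatest share of FPKM, at 60.2%, 64.7% and 64.0%, Ccl9 had 10.3%, 17.1% and 23.1%, and Cxcl2 had 14.0%, 7.58% and 3.83%. In RPM, the ligands together reached 476, 440 and 462 while the receptors ranged from 12.3 (pOC-ABs) to 25.7 (mOC-ABs). The RPM sum of the ligands thus differed less between libraries than Cxcl2, Ccl4 or Ccl9 alone. Such a sum gives more weight to long transcripts, as Ccl9-201 (3006 bases) beside Ccl3-201 (766 bases). In FPKM, Ccl3, with the greatest share, was lower from stage to stage, at 280, 249 and 230.

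**Figure D4:**
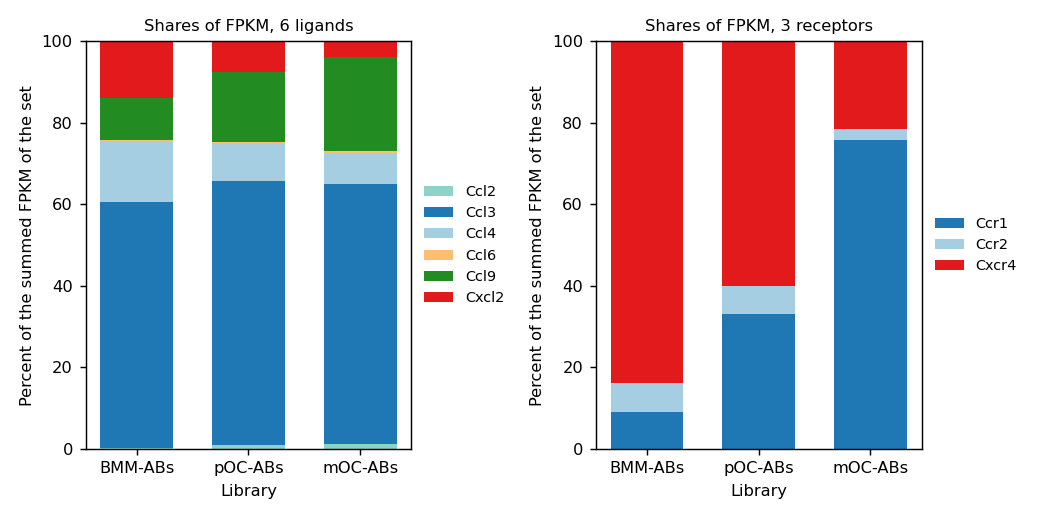
Shares of the summed FPKM of the 6 ligands (left) and 3 receptors (right) in each AB library; bars are stacked to 100 percent and coloured by gene, from 1 library each. Ccr1 takes 75.7% of the receptor sum in mOC-ABs against 9.11% in BMM-ABs, where Cxcr4 takes 83.7%.

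Ordered by FPKM, Ccl3 was the highest of the 9 genes in each library, at 280, 249 and 230. In BMM-ABs it was followed by Ccl4 (69.6), Cxcl2 (65.1), Ccl9 (48.1) and Cxcr4 (9.99), and then by Ccl6 (1.19), Ccr1 (1.09), Ccl2 (1.08) and Ccr2 (0.853). The counting intervals of Ccl4 and Cxcl2 overlapped there, as did those of neighbours among the last 4. In pOC-ABs the order was Ccl9 (65.7), Ccl4 (36.7), Cxcl2 (29.1), Ccl2 (3.37), Cxcr4 (3.30), Ccr1 (1.82), Ccl6 (0.669) and Ccr2 (0.386). Ccl4 and Cxcl2 were again not separated, nor were neighbours from Ccl2 onwards. In mOC-ABs it was Ccl9 (83.1), Ccl4 (27.1), Cxcl2 (13.8), Ccr1 (7.38), Ccl2 (3.90), Cxcr4 (2.09), Ccl6 (1.58) and Ccr2 (0.278), and of these only Ccl2, Cxcr4 and Ccl6 overlapped with a neighbour. Ccr1 moved from the seventh place in BMM-ABs to the fifth in mOC-ABs.

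Sequence upstream of the RefSeq starts (GRCm38.p6) was found for 7 of the 9 genes. Shown are the 4 with a match to 1 of the motifs below, while Ccl3, Ccl6 and Ccr2 held none of these letters within 250 bases upstream. Each line gives 120 bases, 5′ to 3′ on the strand of the gene, ending before its earliest annotated start, and capitals mark matches to a kappaB motif, to the AP-1 motif TGANTCA or to TATAAA, on both strands.
Cxcl2: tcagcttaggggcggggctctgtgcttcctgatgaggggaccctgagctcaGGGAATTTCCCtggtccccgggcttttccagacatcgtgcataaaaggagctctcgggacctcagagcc
Ccl9: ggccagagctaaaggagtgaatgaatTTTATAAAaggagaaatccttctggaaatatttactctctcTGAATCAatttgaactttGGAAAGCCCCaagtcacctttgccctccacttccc
Ccr1: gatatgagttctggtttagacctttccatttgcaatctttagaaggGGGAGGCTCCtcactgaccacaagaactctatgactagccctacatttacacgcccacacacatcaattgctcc
Cxcr4: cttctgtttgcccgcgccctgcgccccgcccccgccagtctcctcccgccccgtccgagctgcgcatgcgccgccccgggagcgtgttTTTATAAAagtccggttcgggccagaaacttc
They lie at chr5:90903751-90903870 (plus strand, Cxcl2), chr11:83578637-83578756 (minus, Ccl9), chr9:123968693-123968812 (minus, Ccr1) and chr1:128592300-128592419 (minus, Cxcr4). The Cxcl2 stretch held overlapping kappaB matches on both strands from -97 to -87, counted from the RefSeq start. Ccl9 held a kappaB match at -35 to -26, an AP-1 match at -53 to -47 and overlapping TATAAA matches from -94 to -87. Ccr1 held a kappaB match at -74 to -65, and Cxcr4 overlapping TATAAA matches from -32 to -25. Within 250 bases upstream, a kappaB match occurred in 7.25% of 32851 promoters, an AP-1 match in 6.75% and TATAAA in 12.4%. A match describes these letters and not a bound site.

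Of the other chemokine and receptor genes listed, 18 of 57 had entries in the table, and 8 had at least 20 reads. The 9 genes described above held 81.0%, 87.8% and 89.7% of all family reads. Of those 8, 0 were called higher and 1 lower in G1 (against 4.97% and 6.22% of all genes), 2 higher and 3 lower in G2 (4.29% and 9.14%), and 1 higher and 2 lower in G3 (3.65% and 7.03%). The fractalkine receptor Cx3cr1 had 429, 81 and 86 reads, with log2 ratios of -2.10 for G1 (interval -2.47 to -1.76), -2.08 for G2 (-2.43 to -1.74) and 0.03 for G3 (-0.43 to 0.48). It was the call in G1, and its levels in pOC-ABs and mOC-ABs were not separated by counting error. Its transcripts Cx3cr1-203 (324, 53 and 0 reads) and Cx3cr1-201 (105, 28 and 86) had different orders. They overlap too, so the division of reads between them has the same limit as for Cxcr4.

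The membrane-bound ligand Cxcl16 had 359, 188 and 156 reads, with log2 ratios of -0.63, -0.96 and -0.33, within 2-fold. Ccl25 had 134, 95 and 82 reads (-0.20, -0.47 and -0.27), but the intron-retaining Ccl25-209 alone held 77, 39 and 22 of them and the coding Ccl25-201 held 11, 10 and 23. The other calls are named with their values known. Cxcr3, the receptor of Cxcl10, had 27, 14 and 48 reads and was past 2-fold higher in G2 and G3. Ccl5, a ligand of Ccr1, had 12, 14 and 21 reads, and the interval of its G2 value (1.05, from -0.04 to 2.20) held no difference. Neither gene was past 2-fold in G2 with the total of both tables or with a pseudocount of 1. Cxcl10 had 28, 12 and 7 reads and was lower in G2, and Cxcr5 had 28, 28 and 14 and was lower in G3. Ccrl2, which binds chemerin, had 34, 15 and 0 reads, and was lower by at least 9.60-fold (G2) and at least 5.22-fold (G3).

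Genes that carry chemokine receptor signals were listed as well. Of the 30 listed, 28 had at least 20 reads, and 0 were called in G1, 3 lower in G2 (against 9.14% of all genes) and 1 lower in G3 (against 7.03%), so the shares lay near or below the background, with median log2 ratios of -0.27, -0.13 and 0.05. The kinase Fgr had 553, 325 and 132 reads and was lower in G2 (log2 ratio -1.83, interval -2.11 to -1.55) and in G3 (-1.36, -1.66 to -1.06). Rgs1, which shortens Gi signalling, had 402, 271 and 152 reads (-1.16 in G2, from -1.44 to -0.89). The Gi subunit Gnai2 had 4946, 4034 and 3855 reads and was within 2-fold in each comparison.

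Inflammatory genes, many of which are made together with Ccl3, Ccl4 and Cxcl2 in activated macrophages, were listed beside the chemokines. Of 26 listed, 22 had entries and 18 had at least 20 reads. In G1, 1 was higher and 2 lower (against 4.97% and 6.22% of all genes), in G2 1 higher and 7 lower (4.29% and 9.14%), and in G3 0 higher and 4 lower (3.65% and 7.03%), with median log2 ratios of -0.18, -0.80 and -0.59. Socs3, a feedback inhibitor of cytokine signals, had 499, 221 and 99 reads (-2.09 in G2, interval -2.42 to -1.78; -1.22 in G3, -1.58 to -0.87). Tnfsf9, a TNF family ligand, had 586, 288 and 143 (-1.79 in G2; -1.07 in G3), and the NF-kappaB regulator Nfkbiz had 475, 226 and 137 (-1.55 in G2). These genes, named because they passed 2-fold, had the same order of libraries as Cxcl2. Of the 18 genes, 13 lay below no difference in G2 and 5 above it. The latter included Nfkbia (0.55, interval 0.45 to 0.66), Tnfaip3 (0.59, 0.36 to 0.83) and Il1rn (0.46, 0.28 to 0.65), all within 2-fold.

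Tnf had 1529, 1013 and 645 reads (-1.01 in G2, interval -1.14 to -0.87) and Ptgs2, the inducible prostaglandin synthase, 108, 72 and 35 (-1.39 in G2; -1.10 in G3). Nos2, the inducible nitric oxide synthase, had 135, 306 and 288 reads and was the gene higher in G1 (1.48, 1.18 to 1.78) and in G2 (1.33, 1.03 to 1.64). The remaining lower calls, named with their values known, were Csf3 (20, 0 and 0 reads) and Csf1 (13, 4 and 5) in G1 and G2, and Cd40 (19, 21 and 9) in G3. Both intervals of Csf1 held no difference.

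Genes with the pattern most like that of a member were taken as the 3 protein-coding genes, of 7246 with at least 500 reads, whose log2 ratios in G1 and G2 lay nearest, over 3 libraries. For Cxcl2 they were Tlr13 (451, 160 and 69 reads, largest difference 0.06 in log2 ratio), Pmp22 (0.13) and Irf8 (0.15). For Ccl4 they were Myadm (0.01), Dst (0.01) and Cd300ld (0.03), and for Ccl9 Cdk2ap1 (0.03), Gpsm3 (0.03) and Myo1d (0.05). For Ccl3 they were Tnfaip1, Arfgap1 and Sprtn (each 0.01). Within 0.1 of the member lay 238 genes for Ccl3, 16 for Ccl9, 10 for Ccl4 and 1 for Cxcl2. A small difference from Ccl3 was therefore common and does not single out these genes.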

How the data were processed

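RNA-seq of ABs was analysed from 3 libraries, 1 per stage, grouped by the labelled cell type. The authors deposited a raw read count and an FPKM value for every mRNA and lncRNA transcript, and for each circRNA its junction read count and SRPBM, a signal that the authors obtained by dividing junction reads by a constant per library. The SRPBM and the lncRNA FPKM were not used. HISAT2, StringTie, FastQC and GRCm38 stand in the submitters' processing notes, and their roles and versions, the counting tool and the use of strand are not given in the sources used here. FPKM recomputed from count and length matched the deposited FPKM within 1% for at least 98.3% of transcripts with the mRNA-table total as scale.

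Genes were assigned through GENCODE M21 (56440 matched and 211 did not), and counts were summed per gene and divided by the mRNA-table total. Ratios were called past 2-fold, with all genes of at least 20 reads over the 3 libraries as background. Intervals are exact binomial or, for shares, Wilson 95% intervals; reads carry no molecular identifiers, so they cover counting error only. The fold limit was that of the study, whose adjusted p-values need replicates. Named were the 9 genes and other family genes with at least 100 reads. From each list, up to 10 genes past 2-fold with at least 100 reads were named. Transcripts with the most or at least 10% of the reads of a member were named too. So were the 3 genes nearest in pattern to members with at least 500 reads. Gnai2, Nfkbia, Tnfaip3 and Il1rn were named after their values were seen. The members and lists were chosen with earlier results of these data known. Python 3.11.15, pandas 2.3.3, scipy 1.17.1 and Biopython 1.88 were used, and the interval code was tested on simulated data. Alternatives were 4 other scalings, FPKM, coding or main transcripts only, added lncRNA-table reads, a pseudocount, other limits and no read minimum. Some genes and sequences that these rules name are not reported here.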

Additional observations from a re-analysis of the deposited data

Results flagged for a closer look

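Reads in the lncRNA table, which the comparisons above do not use, overlapped 4 of the ligand genes and exceeded the limit of 3 reads that a count of 0 allows. The table gives no strand and the use of strand in counting is not known, so these reads were not assigned to the sense or antisense of the gene. At Ccl4, the transcript NONMMUT011139.2, a single exon of 1784 bases over the gene with its introns, had 163, 48 and 28 reads (BMM-ABs first, mOC-ABs last). Its log2 ratios were -1.46 for G1 (interval -1.96 to -0.99), -2.30 for G2 (-2.94 to -1.72) and -0.84 for G3 (-1.57 to -0.14), the same order of libraries as for Ccl4. It made up 28.1%, 21.1% and 16.9% of the reads of both.

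At Ccl9, NONMMUT011132.2, a single exon inside the gene, had 20, 80 and 21 reads, with the highest count in pOC-ABs, whereas Ccl9 itself was highest in mOC-ABs. The log2 ratio of this transcript was 2.30 for G1 (interval 1.58 to 3.09) and -1.99 for G3 (-2.76 to -1.28). At Ccl3, NONMMUT084061.1 had 37, 54 and 39 reads, with 54 in pOC-ABs. At Ccl6, ENSMUST00000125626 had 0, 0 and 4 reads and NONMMUT011134.2 had 0, 4 and 0, and both extend past the gene. Whether they belong to E230016K23Rik, the gene annotated antisense to Ccl6, was not checked.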

How the results depend on the processing

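No library could be left out because each stage had 1, and no paired analysis was possible because the stages share no replicate beyond that library. In G1, 4 of the 9 genes were past 2-fold, which became 2 with a pseudocount of 1 added to each level, 7 at 1.5-fold, 6 with the total of both tables, 5 with the main transcript alone or with lncRNA-table reads added, and 0 when the whole interval had to pass. In G3 the count of 3 became 1 under the interval rule. For the other family genes, the count of 1 in G1 became 3 with the total of both tables, 2 with FPKM, 2 with coding transcripts only, 5 at 1.5-fold and 9 without a read minimum. The count of 5 in G2 became 3 with the pseudocount, 2 under the interval rule and 13 without a read minimum, and the count of 3 in G3 became 1 and 10 under the last 2 of these. Without a minimum, 18 genes were counted in place of 8. The share of all genes is given only for the 2-fold limit and the interval rule at the main settings. The other counts have no such background, and show only how a count moved with the setting.

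The total of both tables shifted the median log2 ratio of all genes by -0.20 in G1, -0.10 in G2 and 0.10 in G3, and gave -0.37 for Ccl3 and 0.24 for Ccl9 in G1. Other scalings shifted it by at most 0.08. Of 27 log2 ratios, 1 changed sign under any alternative, that of Ccl6 in G1 (0.59 with overlapping lncRNA-table reads added, an alternative chosen after seeing the data, as were the main transcript alone and the total of nuclear protein-coding genes). Ccl4 in G1 was -1.06 with those reads added. Ccl6 in G1 was -2.02 on the transcript with the most reads, the intron-retaining Ccl6-202, and -1.07 with the total of both tables, and in G3 it was 0.66 with the pseudocount and 0.39 with lncRNA-table reads. By FPKM in place of reads, the share of Cxcl2 on retained-intron transcripts in mOC-ABs was 29.2%. Depth limits Ccl2, Ccl6 and Ccr2, with at most 26 reads in a library.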

Other observations

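The circRNA table listed 1372 back-splice junctions, and in 0 of them was a chemokine or chemokine receptor gene the host. Among ligands without an entry in the mRNA table were Ccl7, Ccl8, Ccl12, Cxcl1 and Cxcl5, and among receptors Ccr3, Ccr7, Cxcr1, Cxcr2 and Ackr3. Ccl22, which macrophages and dendritic cells can make, had 0 reads except in mOC-ABs, where it had 7.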
